A study of Drosophila melanogaster with 6 samples.

Results

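The core circadian clock genes of the fruit fly were followed in head RNA of flies with glial seizure genotypes. The set was defined as 10 genes: per, tim, Clk, cyc, vri, Pdp1, cwo, cry, dco and sgg. A gene was read from an array row that the platform's probe table gives to that gene alone. Under that rule 9 of the 10 had a row, each had exactly 1, and sgg is not analysed here. They stood among 13402 named genes on 16322 array rows.

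The arrays were 6 GeneChip Drosophila Gene 1.0 ST arrays, 3 of control and 3 of pool. Every fly carried repo-GAL4, which drives expression in nearly all glia. Expression of the RNAi and transgene constructs was therefore directed to glia, while RNA came from whole heads. Other genetic differences between lines and control, if there were any, cannot be separated from the driven changes. Control flies carried an empty TRiP RNAi vector with that driver. The pool mixed RNA of 7 lines with the same driver in equal amounts: the RNAi lines target ATPalpha, nrv2, comt, COX7A or SesB, and the transgene lines carry UAS-Dube3a or UAS-htt.12Q.FL. Because lines were mixed before hybridisation, a pool value is an average over lines and cannot show which line carries a difference. Flies were about 3 to 5 days old and were kept at 25 °C, and 15 to 25 heads were taken per genotype. The labels name the tissue as brain although heads were processed. The comparison asks which head transcripts differ, on average over the mixed lines, from the control. In those lines altered glia make flies prone to seizures after a mechanical shock. A change shared by the lines cannot be told apart from a larger one in a few of them.

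The fly clock is a transcriptional feedback loop. CLK and CYC, the products of Clk and cyc, form a dimer that switches on per, tim, vri, Pdp1 and cwo. The PER and TIM proteins later enter the nucleus and shut that dimer down, VRI represses Clk while PDP1 activates it, and CWO represses the same target genes. The kinase DBT, encoded by dco and also called doubletime, phosphorylates PER, the kinase encoded by sgg acts on TIM, and CRY is a blue light receptor that triggers TIM breakdown. In heads the loop runs in photoreceptors, glia, fat body and a small number of brain clock neurons. Transcripts of per, tim, vri, Pdp1 and cwo are known to peak in the evening and night and those of Clk and cry in the morning, while cyc and dco are known as steady. The sources used here do not give the hour at which heads were taken, so no value below is tied to a phase of the day.

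Whole-array measures set the scale for the clock genes. Array medians lay between 5.53 and 5.63 log2 units. Arrays of one group correlated across rows at 0.9967 to 0.9978, and arrays of different groups at 0.9952 to 0.9960. The median absolute difference between group means was 0.069 log2 units over all rows, and 95% of rows differed by less than 0.281. The pool and the control were compared with limma over all rows, and a gene was called at a Benjamini-Hochberg adjusted p under 0.05. In total 473 of 16322 rows were called. The labels do not say whether the arrays of a group hold separate RNA preparations, so the spread behind each p-value may be technical. A row's signal also depends on how its probes respond, so levels are compared between arrays for 1 gene and not between genes.

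Of the 9 measured clock genes 1 rose, 0 fell and 8 did not pass, against 2.90% of all rows called, 1.65% higher and 1.24% lower in the pool. The gene that rose was vri, the repressor of the second loop. It stood at 1.32 times its control level. Clk, dco and tim differed between the groups without overlap but did not pass the test, and per, cyc, Pdp1, cwo and cry overlapped between the groups. An unadjusted p under 0.05 was reached by 3 of the 9 (vri, Clk and dco), against 14.8% of all rows. The pool array values lay entirely on one side of the control values for 4 of the 9, against 21.5% of all rows. The median change of the 9 genes was 0.05 log2 units, beside -0.00055 over all rows. With this few genes, these counts describe the set and say nothing particular about it.

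**Figure D1:**
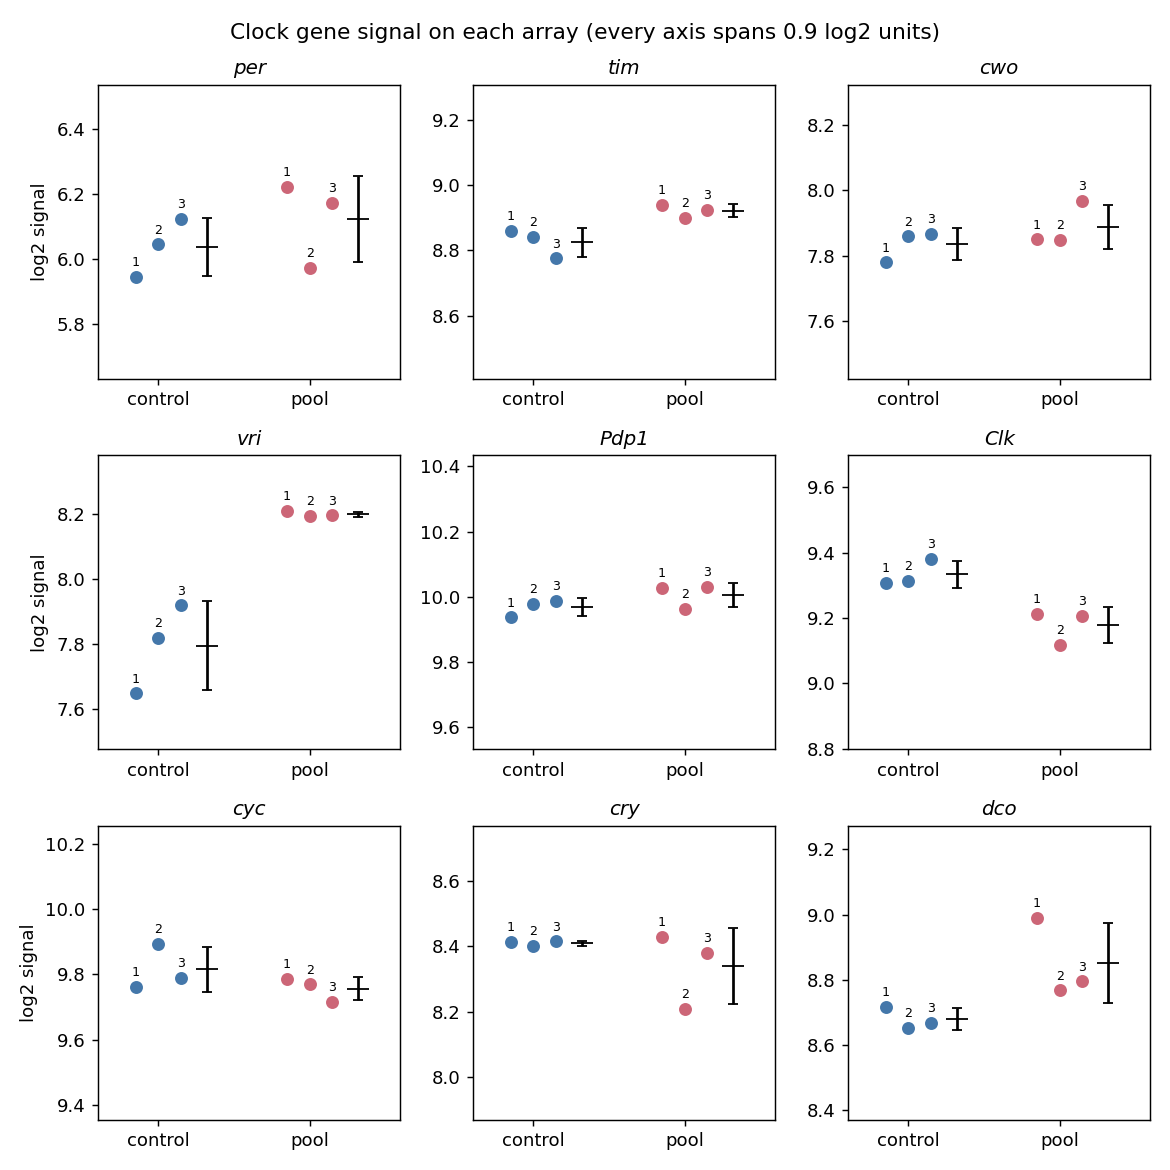
Signal of each clock gene on each array, in log2 units, with a panel per gene. Points are arrays with their replicate number, blue for control and red for pool. Black bars are the group mean and SD of 3 arrays. All panels cover the same span, so heights can be compared as changes. The pool points of vri lie together at about 8.2, above all control points, and those of Clk lie below all control points.

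vri encodes a bZIP protein that is itself a direct target of CLK and CYC and that represses Clk. Its signal was 7.65, 7.82 and 7.92 log2 units in control replicates 1 to 3 and 8.21, 8.19 and 8.19 in pool replicates 1 to 3, the order used for every gene here. The pool arrays agreed closely with each other, while the control arrays were spread and all lay below them. The means were 7.80 ± 0.14 in the control and 8.20 ± 0.01 in the pool (SD, n = 3 per group). The change was 0.40 log2 units with a standard error of 0.073 and a 95% confidence interval of 0.23 to 0.57 (limma adjusted p = 0.0287). Its size exceeded that of 97.8% of all rows. The gap between the groups, from 7.92 to 8.19, was about as wide as the whole control range, 0.27 log2 units.

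The size of the vri rise held in each reanalysis while its call did not. Its change ran from 0.33 to 0.46 over 13 alternatives. Some of these, such as leaving out dim rows, keep the change as it was by construction. With the groups apart, leaving out 1 array could not reverse it. With 1 array left out the adjusted p from limma was 0.0578 without control replicate 1, 0.0877 without control replicate 2, and 0.107, 0.101 and 0.102 without pool replicates 1, 2 and 3. It was 0.0251 without control replicate 3. With each array centred on its median it was 0.0554.

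**Figure D2:**
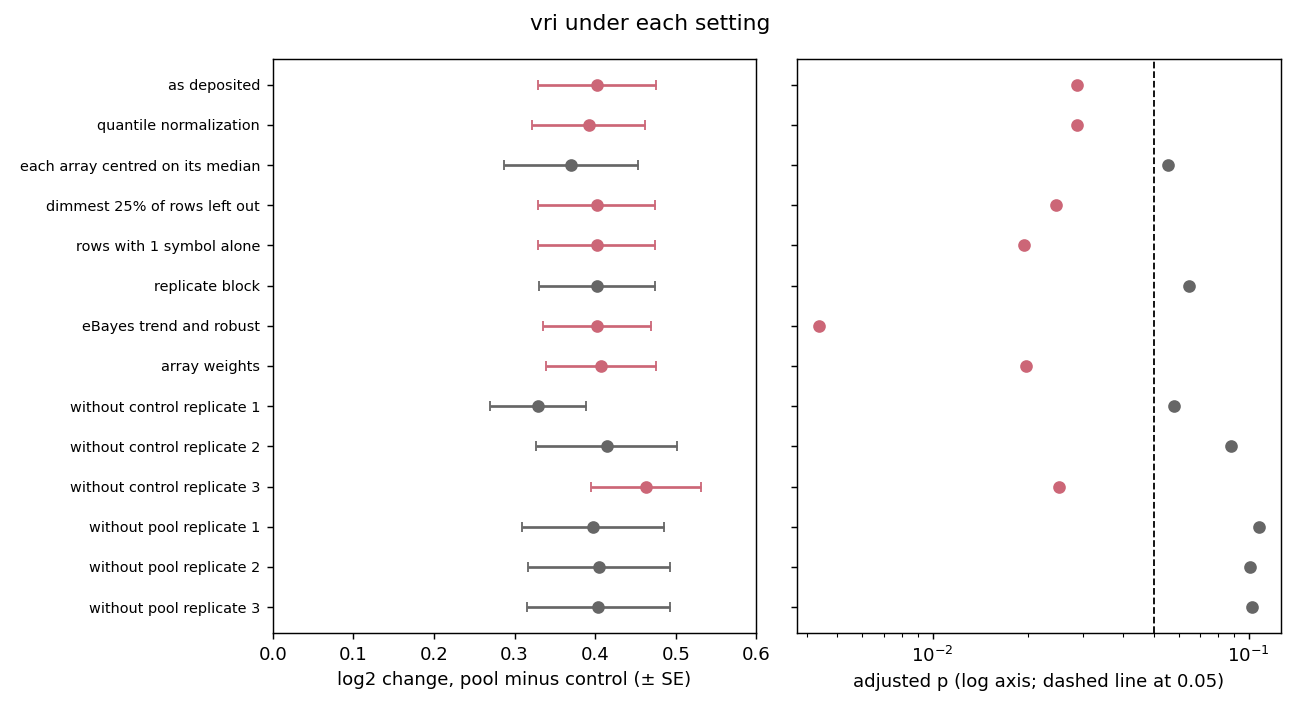
The vri result under each setting. The left panel gives the log2 change, pool minus control, with its standard error, and the right panel the adjusted p on a log axis with a dashed line at the threshold. Red marks settings in which vri passed. The change stays between 0.33 and 0.46, while the adjusted p lies on both sides of the line.

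The other 4 targets of CLK and CYC stood within 0.10 log2 units of their control level, and none passed. tim, the partner of per in the repressor complex, read 8.86, 8.84 and 8.78 in the control and 8.94, 8.90 and 8.93 in the pool. All 3 pool arrays were above all control arrays, by a small margin. The change was 0.10 (95% interval -0.02 to 0.21, limma adjusted p = 0.435).

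per, the namesake repressor of the loop, read 5.95, 6.05 and 6.12 in the control and 6.22, 5.97 and 6.17 in the pool. Pool replicate 2 fell among the control values and the groups overlapped. The means were 6.04 ± 0.09 and 6.12 ± 0.13 (SD, n = 3 per group), with a change of 0.08 (interval -0.10 to 0.27, limma adjusted p = 0.707). It was 0.03 without pool replicate 1 and 0.16 without pool replicate 2. The signal of per was close to the array medians, and its spread within groups, 0.112 log2 units, was the widest of the 9 genes.

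Pdp1, the activator of Clk that opposes VRI, read 9.94, 9.98 and 9.99 in the control and 10.03, 9.96 and 10.03 in the pool. The groups overlapped and the change was 0.04 (interval -0.08 to 0.16, limma adjusted p = 0.790). Pdp1 makes several transcripts, of which 1 form serves the clock, and the row gives a single value for the gene, so its forms cannot be separated here.

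cwo, which represses the same targets and so sharpens their rhythm, read 7.78, 7.86 and 7.87 in the control and 7.85, 7.85 and 7.97 in the pool. The groups overlapped, with a change of 0.05 (interval -0.08 to 0.19, limma adjusted p = 0.749). The upper interval bounds of tim, Pdp1 and cwo, as ratios of pool to control, were 1.16, 1.11 and 1.14, and that of per was 1.21. The lower bound for vri was 1.18, and these bounds are not a test of vri against the other genes.

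Whether vri changed more than the other targets was not tested, because vri was singled out by its change. Without vri the other 4 targets together averaged 0.09, 0.00 and 0.11 log2 units above their control means in pool replicates 1, 2 and 3. The control arrays ranged from -0.04 to 0.02 on that measure and overlapped with pool replicate 2.

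Clk, the activator that VRI represses, was the clock gene with the largest difference toward lower signal. It read 9.31, 9.31 and 9.38 in the control and 9.21, 9.12 and 9.21 in the pool. Every pool array was below every control array. The means were 9.33 ± 0.04 and 9.18 ± 0.05 (SD, n = 3 per group). The change of -0.15 log2 units, or 0.898 of the control level, had an interval of -0.28 to -0.03 and an unadjusted p of 0.0220, and it did not pass over all rows (limma adjusted p = 0.226). No alternative brought it past the threshold, with limma adjusted p of 0.0844 to 0.451. It was lower in the pool in all 13, a direction that was largely fixed beforehand. With the groups apart, leaving out 1 array cannot reverse it, and some other settings alter the test and not the change.

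cyc, the constant partner of Clk, read 9.76, 9.89 and 9.79 in the control and 9.78, 9.77 and 9.72 in the pool. The groups overlapped, and the change was -0.06 (interval -0.19 to 0.07, limma adjusted p = 0.706). The activator pair therefore gave 1 gene with separated groups and 1 with overlapping groups, and neither passed.

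cry, the light receptor, was spread unevenly between the groups. It read 8.41, 8.40 and 8.42 in the control, a range of 0.014 log2 units, and 8.43, 8.21 and 8.38 in the pool, a range of 0.222. Pool replicate 2 was the low value, and pool replicate 1 lay above every control array. The change was -0.07 (interval -0.23 to 0.08, limma adjusted p = 0.703), and without pool replicate 2 it was -0.0048.

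dco, the casein kinase that phosphorylates PER, read 8.72, 8.65 and 8.67 in the control and 8.99, 8.77 and 8.80 in the pool. All pool arrays were above all control arrays, and pool replicate 1 was well above the other pool arrays. The change of 0.17 had an interval of 0.01 to 0.33 and an unadjusted p of 0.0400, and did not pass over all rows (limma adjusted p = 0.308). Without pool replicate 1 it was 0.10.

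**Figure D3:**
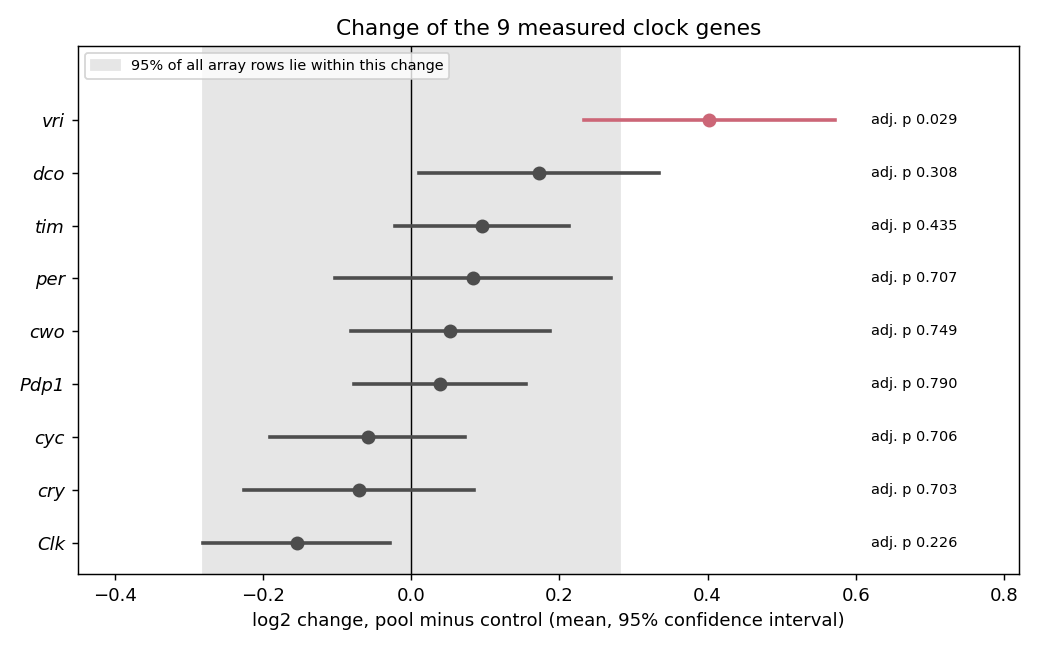
Log2 change, pool minus control, of each measured clock gene with its 95% confidence interval, ordered by change. The grey band holds the changes of 95% of all array rows. vri, in red, is the gene whose mean lies outside the band and the 1 that passed; Clk has the lowest mean at -0.15.

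The order of the changes ran from vri (0.40) through dco (0.17), tim (0.10), per (0.08), cwo (0.05) and Pdp1 (0.04) to cyc (-0.06), cry (-0.07) and Clk (-0.15). With 1 array left out the changes of cwo, Pdp1 and cyc ran from 0.01 to 0.07, from 0.02 to 0.06 and from -0.09 to -0.02. Each neighbouring pair in that order below vri had intervals that overlapped widely. The intervals of vri and dco also overlapped. Grouped by known phase, the 5 CLK and CYC targets averaged 0.13 log2 units above their control means in the pool, with pool arrays at 0.16, 0.08 and 0.17 and control arrays between -0.06 and 0.04. The morning genes Clk and cry together averaged -0.11, with pool arrays at -0.05, -0.21 and -0.08 and control arrays between -0.01 and 0.03. The groups of arrays did not overlap on either measure; vri and Clk supply most of the difference in each, and the groups of genes were formed with these values known.

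Some arrays were low for several clock genes at once. Pool replicate 2 was the lowest pool array for 8 of the 9 genes, cyc being the exception, against 36.5% of all rows. With each array centred on its median it was lowest for 6 of the 9, against 33.4% of all rows. Control replicate 1 was the lowest control array for 6 of the 9, among them vri, per and cwo, against 36.8% of all rows, and after centring for 5 of the 9, against 38.1% of all rows.

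The array profile of vri was compared with those of all other named rows. The measure was the root mean square difference over the 6 arrays of log2 values, with each gene set to its own mean. The 5 most alike genes were Cda5 (0.0527 log2 units), CG8630 (0.0530), snoRNA:CG32479-a (0.0533), Hsp27 (0.0561) and Ugt301D1 (0.0580), where the median gene differed from vri by 0.229. Cda5 encodes a chitin deacetylase-like protein, Hsp27 a small heat shock protein and Ugt301D1 a UDP-glycosyltransferase. All 5 had higher means in the pool, by 0.33 to 0.45 log2 units, a direction that follows from choosing them by likeness. Hsp27 did not pass (limma adjusted p = 0.0659), the other 4 did, and no core clock gene was among the 5. The calls ended without pool replicate 1 for CG8630 (0.0519) and snoRNA:CG32479-a (0.0641), without pool replicate 2 for snoRNA:CG32479-a (0.0660) and without pool replicate 3 for Cda5 (0.0539), while Hsp27 passed without control replicate 3 (0.0307). With 6 arrays in 2 groups, the measure weighs mainly the size and direction of the change between groups.

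No gene listed as a regulator of the clock proteins passed the test. Of 25 listed regulators 19 were measured, and 0 rose and 0 fell in limma. This list and those below were chosen with earlier results of these data known. Their counts describe the lists and are no test of them. An unadjusted p under 0.05 was reached by 2, against 14.8% of all rows. The median change was 0.006, with a range of -0.14 to 0.23. They include slmb and jet, which act in the breakdown of PER and TIM, the phosphatase subunits tws and wdb, and the PER translation factors tyf and Atx2. The 2 with the smallest p were Usp8 and Bdbt. Usp8, a deubiquitinase that acts on CLK, read 7.31, 7.31 and 7.38 in the control and 7.58, 7.63 and 7.46 in the pool, a change of 0.23 (limma adjusted p = 0.120). Bdbt, which binds the DBT kinase, stood at 0.19 (limma adjusted p = 0.259). For both, every pool array was above every control array.

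Among peptides of clock neurons, CNMa and NPF fell. Of 12 listed genes, 11 peptide precursors and the receptor gene Pdfr, 2 fell and 0 rose, where 1.24% of all rows fell. Without a test, 10 of the 12 had a lower mean in the pool, where 50.2% of all rows did. The list was chosen with earlier results of these data known, so these shares describe the list alone. Those 10 ran from -0.92 for CNMa to -0.02 for Dh44. The median change of the 12 was -0.07. CNMa, the precursor of the peptide CNMamide, made in a group of dorsal clock neurons among other cells, read 8.63, 8.81 and 8.68 in the control and 7.74, 7.78 and 7.84 in the pool. The groups lay far apart, at 0.528 of the control level (change -0.92, standard error 0.064, limma adjusted p = 0.000328), and the call held with any 1 array left out.

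NPF, the neuropeptide F precursor found in some of the lateral clock neurons and elsewhere in the brain, read 8.07, 8.25 and 8.10 in the control and 7.80, 7.79 and 7.70 in the pool. The groups did not overlap and the change was -0.38 (limma adjusted p = 0.0232). The call held without control replicate 1 (0.0491) and ended on leaving out any other array, with adjusted p of 0.0557 to 0.0947. Pdf, the main output peptide of the ventral lateral clock neurons, named here after its values were seen, read 6.80, 6.82 and 6.47 in the control and 6.44, 6.58 and 6.26 in the pool. Its groups overlapped and it did not pass (change -0.27, interval -0.53 to 0.00083, limma adjusted p = 0.339). In whole-head RNA, fewer cells of a type and less RNA per cell cannot be told apart.

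Transcripts known for daily rhythms in heads included 2 metabolic genes that fell. Of 11 listed genes 9 were measured; 2 fell, 0 rose, and the median change was 0.005, where 1.24% of all rows fell. An unadjusted p under 0.05 was reached by 4 of the 9, where 14.8% of all rows reached it. The groups did not overlap for 5, 3 higher and 2 lower in the pool, against 21.5% of all rows. Usp8 stands in this list and among the regulators. Cyp4d21, a cytochrome P450 of head fat body linked to male mating behaviour, read 9.44, 9.46 and 9.51 in the control and 8.91, 8.92 and 8.84 in the pool. That was a change of -0.58 (standard error 0.051, limma adjusted p = 0.00112). Ugt35B1, a UDP-glycosyltransferase, read 10.87, 10.88 and 10.92 in the control and 10.56, 10.48 and 10.49 in the pool, a change of -0.38 (limma adjusted p = 0.00854). Leaving out any 1 array ended neither call. The remaining 7 did not pass; among them e, the ebony gene of glia, stood at 0.06 (limma adjusted p = 0.714).

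Of 15 genes for light input and the rhythm circuit 13 were measured, and 0 rose and 0 fell in limma. An unadjusted p under 0.05 was reached by 4, against 14.8% of all rows. The median change was 0.02. disco, a transcription factor needed for the optic lobe and clock neurons to form, stood at -0.25 (limma adjusted p = 0.131) and unc79, a subunit of the sodium leak channel complex that sets clock neuron excitability, at 0.16 (limma adjusted p = 0.212). In both the groups did not overlap. Over the 13 genes this held for 4 higher and 2 lower in the pool, against 21.5% of all rows. The changes ran from -0.25 for disco to 0.30 for Fer2 (limma adjusted p = 0.262).

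Relatives of the clock genes from the same protein families held no called gene either. Of 19 listed genes 14 were measured, and 0 rose and 0 fell in limma. An unadjusted p under 0.05 was reached by 1, against 14.8% of all rows. gish, a casein kinase relative of dco, read 9.60, 9.61 and 9.55 in the control and 9.76, 9.74 and 9.76 in the pool, a change of 0.17 (limma adjusted p = 0.143) beside the 0.17 of dco. gish passed with eBayes' trend and robust settings (adjusted p = 0.0279). tgo, a partner of other proteins of the CLK and CYC family, stood at 0.17 (limma adjusted p = 0.382) with overlapping groups.

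**Figure D4:**
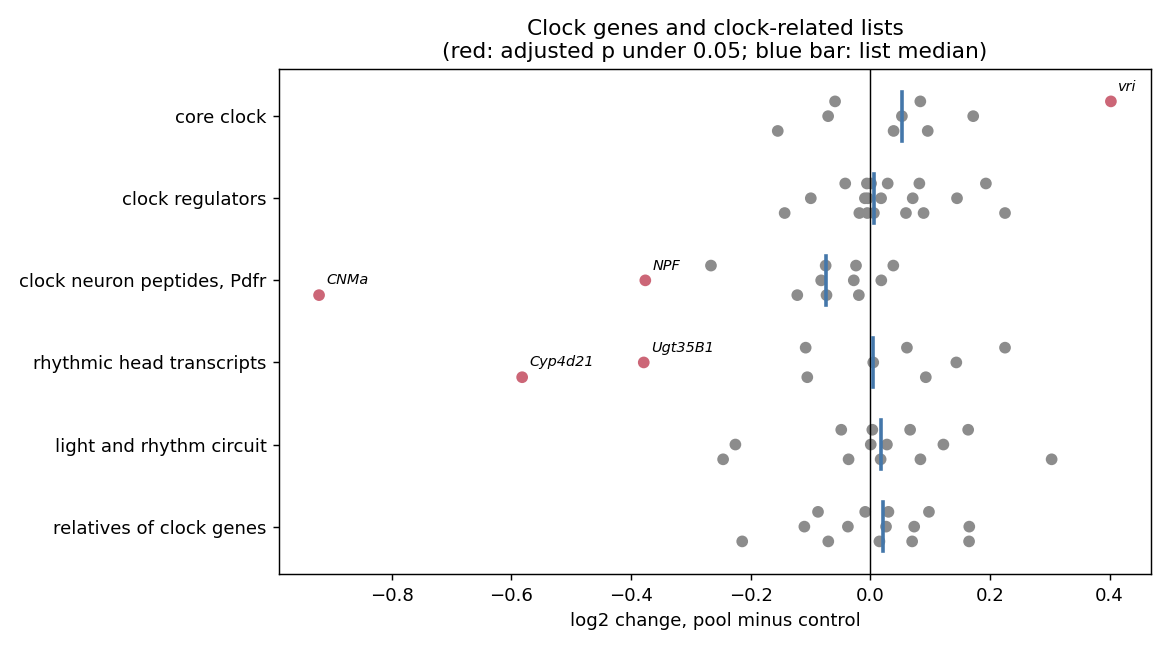
Log2 change, pool minus control, of each measured gene in the core clock set and in the clock-related lists. Red points passed the test and are named, and blue bars are list medians. CNMa is lowest at -0.92 and vri highest at 0.40, while every list median lies between -0.07 and 0.05.

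Markers of head cell types differed between the groups as well. Of 10 listed photoreceptor genes 4 were measured (chp, trp, inaD and Arr2), and all 4 had groups that did not overlap, against 21.5% of all rows. Of these chp rose (change 0.29, limma adjusted p = 0.0309) and the others did not pass, with trp at 0.20, inaD at 0.12 and Arr2 at 0.05. That call ended on leaving out any 1 array (adjusted p of 0.0544 to 0.119) and with arrays centred on their medians (0.0699). The mean signal of the 4 was 11.98 in each control array and 12.12 to 12.16 in the pool arrays, 0.17 log2 units higher on average. The 5 CLK and CYC targets averaged 0.13 higher, and 0.07 without vri. A link between these means was not tested. Among 9 of 10 glial markers measured, wrapper of cortex glia fell by 0.47 log2 units (limma adjusted p = 0.00299) and 0 rose. An unadjusted p under 0.05 was reached by 5 of the 9, against 14.8% of all rows. The groups did not overlap for 7 of the 9, 3 of them higher and 4 lower in the pool. One of the 4 lower, nrv2 (-0.07), is itself the target of an RNAi line in the pool. Gli and moody of the blood-brain barrier stood at 0.25 and 0.20 and Tret1-1 at 0.12, while repo and the astrocyte gene alrm stood at -0.18 and -0.17. The list mean, over genes that went both ways and with nrv2 among them, was 8.97 to 9.01 in the control and 8.94 to 8.95 in the pool. Of 8 neuronal markers 7 were measured and 0 passed in limma, with 0 at an unadjusted p under 0.05; the list means overlapped, at 10.14 to 10.25 and 10.20 to 10.30. Of 8 fat body markers, Lsp2, which encodes a storage protein, rose by 1.33 log2 units (limma adjusted p = 1.45e-05). The other 7 did not pass and had lower means in the pool. The groups did not overlap for Lsp2 and for 5 of the lower markers, against 21.5% of all rows. The list mean was 10.95 to 10.97 in the control and 11.03 to 11.05 in the pool, with Lsp2 the only marker that was higher. Array signals have no true zero, so no marker is at 0. The part of these cell type differences in the vri rise or in the falls of CNMa, NPF, Cyp4d21 and Ugt35B1 was not tested.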

How the data were processed

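Heads of control and pooled flies were measured on 6 arrays, and groups were taken from the labels. The authors deposited 1 log2 value per row and array, made with Affymetrix Expression Console per the submitters' processing notes; the sources used here do not give its version, algorithm or normalization. The log2 scale was inferred from the range of 3.20 to 14.02. Values were used as deposited, so any normalization by the authors is part of them. Arrays carry no read depth, and their number limits the precision.

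Rows were named from the platform table: 13441 of 16322 rows had 1 symbol, 13064 of them with a gene ID in the RefSeq gene table. Rows with several symbols (555) or none (2326) were tested but not named. Pool and control were compared with limma 3.58.1 in R 4.3.3 (lmFit and eBayes, two-sided, all rows, Benjamini-Hochberg adjusted p under 0.05), a step also tested on simulated data. Errors beside means are SDs over 3 arrays.

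All members were named, and from each clock-related list up to 3 called genes of largest change or, with none called, the 2 of smallest p; for the member of smallest p, the 5 most alike profiles were named. Members and lists were chosen with earlier results of these data known. In the lists, 2 older symbols were replaced by the current Mid1 and hry. Alternatives were other scalings, filters, variance models, array weights, a replicate block and leaving out each array. The replicate numbers are shared in the titles alone. Deviations from group means of same-numbered arrays correlated at -0.014, -0.0048 and 0.090 across rows. Those of differently numbered arrays correlated at -0.067 to 0.078. Such values cannot show how the arrays were made. Without a label that names pairs, the numbers were not taken as pairs. Figures were drawn with matplotlib 3.10.9.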

Additional observations from a re-analysis of the deposited data

How the results depend on the processing

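Of 117 values of the 9 clock genes under 13 alternatives, 0 changed sign and 110 kept their side of the threshold. The 7 that did not were all of vri. Many of these signs could not change. The row filters, the replicate block and eBayes' trend and robust settings leave each change as it was. Where the groups did not overlap, leaving out 1 array cannot reverse the direction. The vri call ended, leaving 0 clock genes higher, with each array centred on its median and with the replicate block (adjusted p = 0.0649), and the count ran from 0 to 1 with 1 array left out. The count of clock genes lower in the pool was 0 in every setting. Over all rows the 473 calls became 312 with the replicate block, 861 with eBayes' trend and robust settings, and 218 to 312 with 1 array left out, where fewer arrays enter the fit; for the others the cause was not tested. Centring moved the median change by 0.033 log2 units and left 219 rows called higher and 249 lower, where the values as deposited gave 270 and 203. The labels do not say that same-numbered arrays are pairs, so the block rests on the numbers in the titles alone. Beside vri the block ended the call of NPF (limma adjusted p = 0.0504) and chp (0.0902). Of 234 values of 18 other named genes 0 changed sign, with the same limit, while 18 lost a call and 4 gained one. Among the genes whose call moved were Cda5, CG8630, snoRNA:CG32479-a and Hsp27. Averaging a gene's rows was not run, since each clock gene had 1 row. Without detection calls in the deposited values, how far per or any other row lies above background cannot be given.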
